A study of Mus musculus with 9 samples.

Results

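Il21, Ahr, Cxcr5, Bcl6, Maf, Pdcd1, Rora and Il6ra are 8 genes of the follicular helper (Tfh) and Th17 programs of CD4+ T cells. They were read in regulatory T (Treg) cells, and every probe set annotated with 1 of these symbols was taken, which gave 13 of the 22626 probe sets tested, for 8 of 12393 genes. Probe sets were matched by gene symbol, with no measured value in the rule, but the 8 genes were chosen with earlier results of these data known. The 3 groups of mouse CD4+CD25+ cells, separated with magnets, were hybridised, 1 sample per array, to Affymetrix 3' arrays, with 3 independent samples per group. The first carried fl-CBP with Foxp3cre (CBP-deleted), the second fl-p300 with Foxp3cre (p300-deleted), and the control is labelled Foxp3cre and titled WT. CBP and p300 are related acetyltransferases of histones and other proteins, and the Cre recombinase is driven from Foxp3, the gene of the Treg lineage factor. The strain of all mice is given as C57Bl/6, while age and any pooling of animals are not given in the sources used here. CD25 is also carried by activated T cells that are not Treg cells, so the separation does not select Treg cells alone. Should the control mice lack the Foxp3cre allele, that allele and the deletion cannot be told apart. Values are log2 RMA values, which put background-corrected probe brightness of all arrays on 1 normalised scale, and fewer cells of a type and less RNA per cell cannot be told apart in them.

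Tfh cells form under BCL6, a transcriptional repressor, and enter B cell follicles through CXCR5, the receptor of the chemokine CXCL13. They carry the inhibitory receptor PD-1, the product of Pdcd1, and secrete IL-21, which acts on germinal centre B cells. MAF is a transcription factor that supports IL-21 production. IL-6, received by IL6RA together with gp130, favours both the Tfh and the Th17 fate through STAT3. Th17 cells depend on the nuclear receptors RORgammat and RORalpha, of which Rora encodes RORalpha. AHR, a receptor for small aromatic ligands, is a further factor of Th17 cells and of some Treg cells. Follicular Treg cells share BCL6, CXCR5 and PD-1 with Tfh cells.

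The cytokine gene Il21 was higher in both knockouts, Ahr was higher and Cxcr5 lower in CBP-deleted cells, and no probe set of Bcl6, Maf, Pdcd1, Rora or Il6ra passed the test in any comparison. The test was limma, with p-values adjusted over all probe sets and a threshold of 0.05. Because the members were chosen with earlier results of these data known, counts of members beside shares of all probe sets are description only. In CBP-deleted cells against the control the test called 3 of the 13 members, against 2.50% of all probe sets. Of these 2 rose, where 1.26% of all rose, and 1 fell, where 1.25% of all fell. At an unadjusted p under 0.05, 4 of the 13 differed, against 18.9% of all. In p300-deleted cells against the control it called 1 of the 13, against 2.62% of all. This 1 rose, where 1.45% of all rose, and 0 fell, where 1.17% of all fell. At an unadjusted p under 0.05, 2 of the 13 differed there, Il21 and a Rora probe set, against 17.3% of all probe sets. Between CBP-deleted and p300-deleted cells it called 2 of the 13, against 3.35% of all. Of these 1 was higher, against 2.10% of all, and 1 lower, against 1.25% of all, and the same number, 2, had an unadjusted p under 0.05, against 16.2% of all. For CBP-deleted against control the median log2 fold change was -0.01 over the 13 and -0.02 over all probe sets. For p300-deleted against control it was 0.00 over the 13 and -0.01 over all. Between the knockouts it was 0.02 over the 13 and -0.02 over all. The comparisons with the control share the same 3 control arrays, and for each knockout the values are given side by side.

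**Figure D1:**
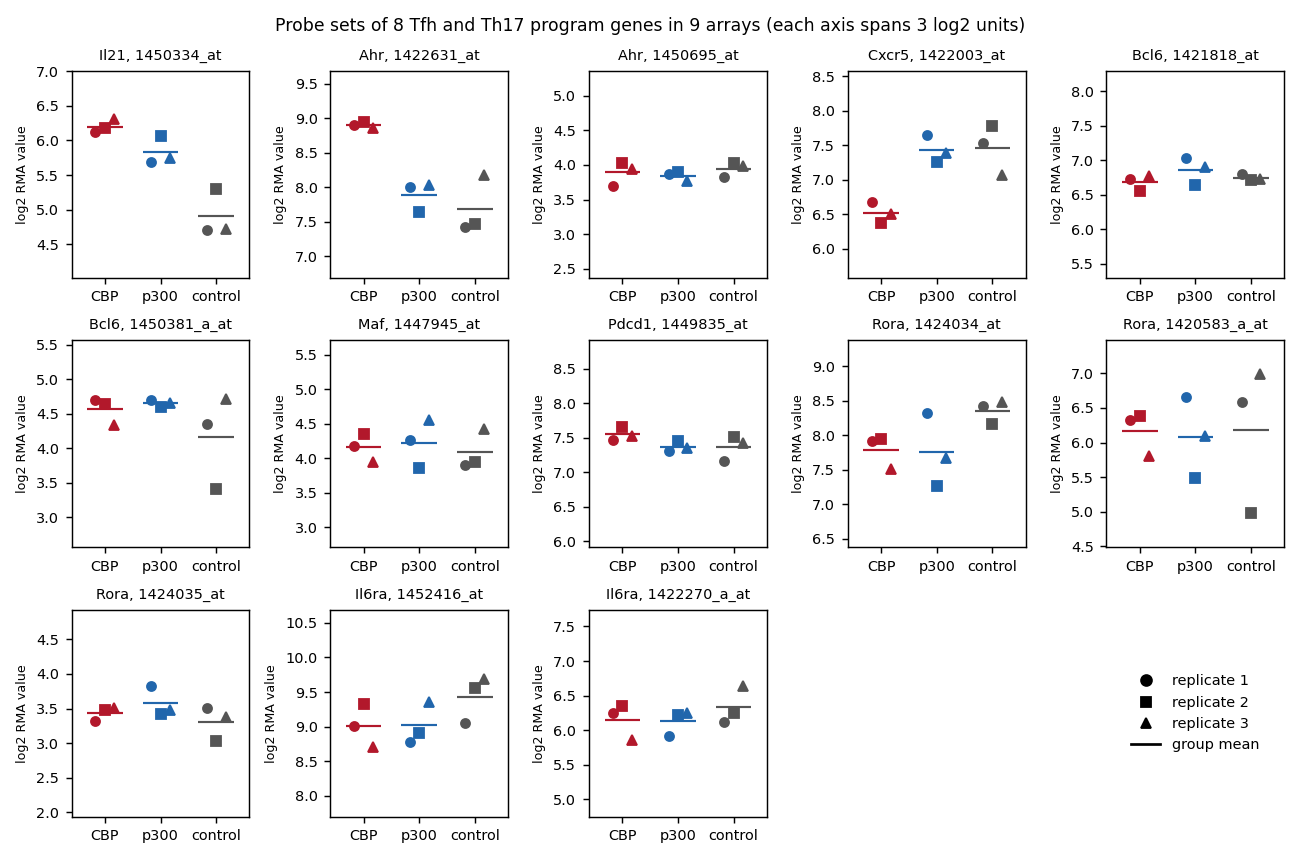
Log2 RMA values of the 13 probe sets in all 9 arrays, with 1 panel per probe set, groups on the x axis (CBP and p300 stand for CBP-deleted and p300-deleted), replicates as symbols and group means as lines; each y axis spans 3 log2 units. The 3 CBP-deleted arrays lie above all others for Il21 and for 1422631_at of Ahr, and below all others for Cxcr5.

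Markers of the cells were read first, in ranges. The Treg identity genes, 8 of 8 measured, had a log2 summed level of 13.12 to 13.19 in CBP-deleted, 13.24 to 13.33 in p300-deleted and 13.17 to 13.35 in control arrays. Values were summed on the linear scale, so bright genes such as Cd3e (control mean 11.48) weigh more than Foxp3 (control mean 9.60). The sum therefore cannot show whether Treg identity was kept. The Foxp3 probe set read 2.73 to 2.97 in CBP-deleted and 2.58 to 3.19 in p300-deleted arrays, against 9.48 to 9.75 in controls, and which part of the transcript it reads is not given in the sources used here. The single probe set of Crebbp, the CBP gene, read 7.11 to 7.35 in CBP-deleted, 7.48 to 7.67 in p300-deleted and 7.36 to 7.67 in control arrays, and the deleted exon is not given either. The 18S ribosomal RNA control probe sets averaged 7.39 to 8.0 in CBP-deleted and 7.88 to 9.62 in p300-deleted arrays, while controls 1, 2 and 3 read 5.82, 6.20 and 8.88.

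Il21, the cytokine of the group, lies at chr3:37222759-37232636 on GRCm38.p6 and was read by 1 probe set. It read log2 6.12, 6.17 and 6.31 in CBP-deleted arrays 1 to 3, 5.69, 6.06 and 5.75 in p300-deleted arrays 1 to 3, and 4.71, 5.30 and 4.72 in control arrays 1 to 3. All 6 knockout arrays lay above all 3 controls, and the CBP-deleted arrays also lay above the p300-deleted ones. Il21 was 2.45-fold higher in CBP-deleted than in control cells (log2 1.29, SE 0.17, limma adjusted p = 0.00589). Of all probe sets, 0.265% had a larger absolute change in that comparison. In p300-deleted cells it was 1.90-fold higher than in the control (log2 0.92, SE 0.17, adjusted p = 0.0219). On average 56.4% of the probe sets of a CBP-deleted array lay below it, 52.7% in p300-deleted and 44.1% in control arrays. The rise in CBP-deleted cells passed in all 20 alternatives that were run, with adjusted p from 0.000747 to 0.0377. Among these, the filter against dim probe sets kept Il21 by its mean over the 9 arrays, 5.65 against a median of 5.55. Its mean in control arrays, 4.91, lay below that median. The rise in p300-deleted cells missed the threshold without p300-deleted replicate 1 (adjusted p = 0.0525), p300-deleted replicate 2 (0.116) or control replicate 1 (0.0776). It also missed it with the 18S level as a covariate (0.0877) and when only the 2 compared groups were fitted (0.0698), with adjusted p between 0.00424 and 0.116 over 20 alternatives. The CBP-deleted and p300-deleted levels of Il21 differed by 0.37 (95% interval -0.01 to 0.75, adjusted p = 0.329), and this difference did not pass the test.

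Promoter sequence is shown for Il21, as the member that rose in both knockouts, and for Bcl6, as the Tfh lineage factor that did not pass in either. RefSeq windows of 300 bases, from 250 before to 50 after the annotated start, were found for 5 of the 8 genes. Capitals mark 3 motifs searched on both strands: TGACG, the half-site of the cyclic AMP response element, GGAAA, the core bound by NFAT factors, and TTCNNNGAA, the form bound by STAT factors. The Il21 window is chr3:37232587-37232886 and that of the upstream Bcl6 start is chr16:23988803-23989102, both on the minus strand of GRCm38.p6 and printed 5' to 3'.
Il21: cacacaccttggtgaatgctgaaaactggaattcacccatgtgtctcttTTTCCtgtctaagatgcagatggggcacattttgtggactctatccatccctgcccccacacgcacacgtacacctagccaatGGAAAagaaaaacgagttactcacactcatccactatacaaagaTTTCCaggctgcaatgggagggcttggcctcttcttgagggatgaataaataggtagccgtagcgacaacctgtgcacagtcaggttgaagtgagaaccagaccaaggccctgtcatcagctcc
Bcl6: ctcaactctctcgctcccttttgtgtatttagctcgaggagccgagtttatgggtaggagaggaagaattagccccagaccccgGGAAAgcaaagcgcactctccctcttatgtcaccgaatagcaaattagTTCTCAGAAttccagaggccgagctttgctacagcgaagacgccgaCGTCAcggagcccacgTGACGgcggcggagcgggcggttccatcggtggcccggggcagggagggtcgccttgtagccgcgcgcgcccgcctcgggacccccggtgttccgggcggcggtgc
The Il21 window held 3 matches to GGAAA and 0 to the other motifs. The Bcl6 window held 2 matches to TGACG, 1 to GGAAA and 1 to TTCNNNGAA, none of which overlap. The window of the other annotated Bcl6 start, chr16:23981234-23981533 and not printed, held 0 matches to TGACG, 4 to GGAAA and 3 to TTCNNNGAA, of which 1 overlaps a GGAAA. Over all 32851 promoter windows, 20.8% held TGACG, 61.3% held GGAAA and 8.30% held TTCNNNGAA. These matches describe letters only.

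Ahr, the gene of the aryl hydrocarbon receptor at chr12:35497979-35534989, was read by 2 probe sets that did not move together. The brighter one, 1422631_at, read 8.90, 8.95 and 8.86 in CBP-deleted arrays 1 to 3, 8.0, 7.64 and 8.03 in p300-deleted arrays, and 7.43, 7.47 and 8.18 in control arrays. The CBP-deleted arrays lay above all 6 others, whose ranges overlapped because control replicate 3 was above every p300-deleted array. This probe set was 2.31-fold higher in CBP-deleted than in control cells (log2 1.21, SE 0.18, adjusted p = 0.0101). It was 2.02-fold higher in CBP-deleted than in p300-deleted cells (log2 1.01, SE 0.18, adjusted p = 0.0140). In p300-deleted cells it differed from the control by 0.20 (95% interval -0.20 to 0.60, adjusted p = 0.641). The other probe set, 1450695_at, read 3.70 to 4.04 in CBP-deleted, 3.77 to 3.90 in p300-deleted and 3.83 to 4.02 in control arrays. On average 32.8% of the probe sets of a CBP-deleted array, and 33.2% of those of a control array, lay below it. It was -0.05 from the control in CBP-deleted cells (95% interval -0.32 to 0.21, adjusted p = 0.859), and it had r = -0.03 with the brighter probe set over the 9 arrays. With both probe sets averaged, Ahr was 0.58 higher in CBP-deleted than in control cells (adjusted p = 0.0323) and 0.53 higher than in p300-deleted cells (adjusted p = 0.0360). Against the control the call was lost without CBP-deleted replicate 2 (adjusted p = 0.0508) or control replicate 1 (0.0521), and adjusted p lay between 0.000533 and 0.0521 over 20 alternatives. Against p300-deleted cells it was lost without CBP-deleted replicate 1 (0.0503), 2 (0.0757) or 3 (0.0505) or p300-deleted replicate 2 (0.0676), in a range of 0.000836 to 0.0757.

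Genes that work with AHR or are induced by it did not pass. Of 8 measured, 0 passed in any of the 3 comparisons with limma. At an unadjusted p under 0.05, 0 differed in CBP-deleted against control, 1 in p300-deleted against control and 0 between the knockouts. The shares of all probe sets were 18.9%, 17.3% and 16.2% in that order. Nqo1, a quinone reductase, was at 3.79 in CBP-deleted, 3.51 in p300-deleted and 4.02 in control cells as group means. It differed from the control by -0.23 in CBP-deleted (adjusted p = 0.393) and by -0.51 in p300-deleted cells (adjusted p = 0.0698).

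Cxcr5, the follicle homing receptor at chr9:44511787-44526444, was read by 1 probe set. It read 6.67, 6.38 and 6.51 in CBP-deleted arrays 1 to 3, 7.65, 7.26 and 7.38 in p300-deleted arrays, and 7.54, 7.79 and 7.07 in control arrays. The CBP-deleted arrays lay below all 6 others, and the p300-deleted and control arrays overlapped. Cxcr5 was 1.93-fold lower in CBP-deleted than in control cells (log2 -0.95, SE 0.18, adjusted p = 0.0239). It was 1.88-fold lower in CBP-deleted than in p300-deleted cells (log2 -0.91, SE 0.18, adjusted p = 0.0188). The p300-deleted and control levels differed by -0.03 (95% interval -0.42 to 0.36, adjusted p = 0.954). Against the control the fall lost its call without CBP-deleted replicate 1 (adjusted p = 0.0683), 2 (0.0971) or 3 (0.0965) or control replicate 1 (0.0891), and when only these 2 groups were fitted (0.0596). Over 20 alternatives the adjusted p lay between 0.00236 and 0.0971. Against p300-deleted cells it was lost without CBP-deleted replicate 2 (0.10) or 3 (0.0701) or p300-deleted replicate 1 (0.0864) or 3 (0.0538), in a range of 0.00138 to 0.10.

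B cells also express Cxcr5 and Bcl6, and B cell markers were lower in the same CBP-deleted arrays. Of 9 measured B cell markers 2 fell in CBP-deleted cells against the control and 0 rose. They were Cd79a (log2 -1.03, adjusted p = 0.0436) and Cd79b (log2 -0.84, adjusted p = 0.0367), the signalling chains of the B cell receptor. At an unadjusted p under 0.05, 4 of the 9 were lower and 0 higher, against 18.9% of all probe sets in either direction. Among them Ms4a1 (log2 -0.96, adjusted p = 0.0885) and Cd22 (log2 -0.62, adjusted p = 0.0513) did not pass. In p300-deleted cells against the control 1 was lower and 0 higher at that level. Cd79a kept its call in 8 and Cd79b in 9 of 20 alternatives, with adjusted p up to 0.141 for Cd79a and 0.120 for Cd79b, and of the arrays left out singly both kept it only without control replicate 3. The log2 summed level of the 9 markers was 8.98 to 9.52 in CBP-deleted, 9.28 to 10 in p300-deleted and 9.83 to 10.03 in control arrays. Of the 9, 4 had group means below the median probe set, 5.55, in each group, among them Pax5, Fcer2a, Cr2 and Ebf1. By array 1 to 3 the sum was 9.52, 8.98 and 9.38 in CBP-deleted, 10, 9.28 and 9.66 in p300-deleted and 10.03, 9.94 and 9.83 in control cells. Within each knockout Cxcr5 had the same order as the sum, and within the controls it did not. In p300-deleted arrays 2 and 3 the sum lay below all controls while Cxcr5 read 7.26 and 7.38, within the control range. The part of B cells in the Cxcr5 difference was not tested.

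**Figure D2:**
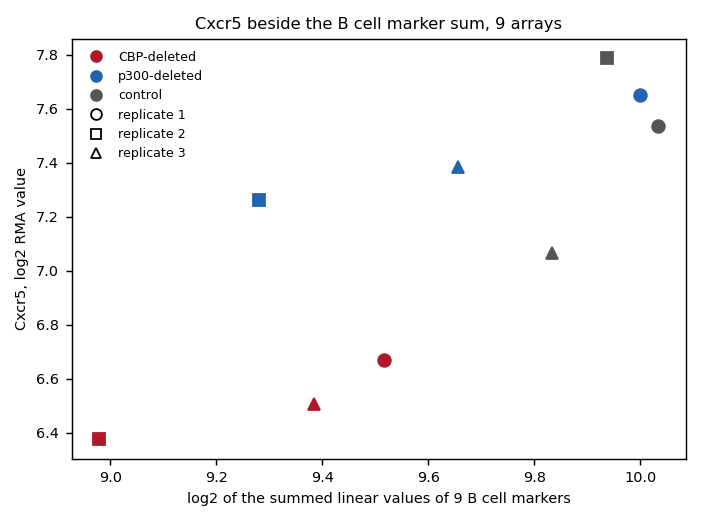
Cxcr5 as log2 RMA value (y axis) against the log2 of the summed linear values of 9 B cell markers (x axis), with 1 point per array, coloured by group and shaped by replicate. The CBP-deleted arrays sit lowest on Cxcr5, at 6.38 to 6.67, with marker sums of 8.98 to 9.52. The p300-deleted arrays lie at 7.26 to 7.65 with sums of 9.28 to 10, and the controls at 7.07 to 7.79 with sums of 9.83 to 10.03.

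Markers of other cells were measured in the same arrays. The log2 summed level of 5 plasma cell genes was 12.31 to 12.65 in CBP-deleted, 13.29 to 13.53 in p300-deleted and 12.28 to 12.59 in control arrays, and that of 8 mast cell and basophil genes 8.06 to 9.16 in CBP-deleted, 9.06 to 9.84 in p300-deleted and 8.14 to 8.22 in control arrays. That of 12 myeloid and neutrophil genes was 9.48 to 12.20 in CBP-deleted, 9.79 to 11.77 in p300-deleted and 8.39 to 9.51 in control arrays. All 3 of these sums were higher in every p300-deleted array than in any control. For 10 CD8 T cell and NK cell genes it was 10.70 to 11.22 in CBP-deleted, 11.13 to 11.55 in p300-deleted and 11.16 to 11.27 in control arrays, and for 5 naive CD4 T cell genes 12.82 to 12.94 in CBP-deleted, 12.24 to 12.60 in p300-deleted and 12.50 to 12.71 in control arrays. The naive T cell sum was higher in every CBP-deleted array than in any other. Of its 5 genes, 1 passed in CBP-deleted cells against the control, Igfbp4 (log2 1.34). Ccr7 (0.39) and Lef1 (0.68) were higher without passing, and Il7r (-0.23) and Satb1 (-0.03) were lower without passing. In p300-deleted cells, where Il21 rose, 3 plasma cell genes (Tnfrsf17, Jchain and Xbp1), 2 mast cell genes (Mcpt8 and Cma1) and 1 myeloid gene (Camp) rose against the control, and 0 genes of these lists fell. In CBP-deleted cells 2 CD8 and NK cell genes, Gzmk and Cd8b1, and 1 naive T cell gene, Igfbp4, rose against the control. Of the 10 CD8 and NK cell genes, 2 others were lower in CBP-deleted cells at an unadjusted p under 0.05 without passing, Nkg7 (log2 -0.80, adjusted p = 0.0746) and Prf1 (log2 -0.51, adjusted p = 0.0899), and the list median was 0.03. Of the genes that rose, Tnfrsf17, Xbp1 and Igfbp4 passed in all alternatives run, and the others lost their call in 2 (Jchain, Gzmk) to 9 (Camp). The part of these cells in the Il21 and Ahr differences was not tested.

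Bcl6, at chr16:23965050-23988866, had 2 probe sets and neither passed. The brighter, 1421818_at, read 6.73, 6.56 and 6.77 in CBP-deleted, 7.04, 6.64 and 6.91 in p300-deleted and 6.80, 6.71 and 6.73 in control arrays 1 to 3. The 3 groups overlapped. It differed from the control by -0.06 in CBP-deleted cells (95% interval -0.33 to 0.21, adjusted p = 0.840) and by 0.12 in p300-deleted cells (95% interval -0.15 to 0.39, adjusted p = 0.693). The dimmer 1450381_a_at read 4.34 to 4.70 in CBP-deleted and 4.60 to 4.70 in p300-deleted arrays, and 4.35, 3.42 and 4.71 in controls 1 to 3, with control replicate 2 the lowest of all arrays. It was 0.40 above the control in CBP-deleted (95% interval -0.18 to 0.98, adjusted p = 0.454) and 0.49 above it in p300-deleted cells (95% interval -0.08 to 1.07, adjusted p = 0.369).

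Maf, at chr8:115703253-115706894, had 1 dim probe set. It read 3.95 to 4.35 in CBP-deleted, 3.86 to 4.56 in p300-deleted and 3.90 to 4.42 in control arrays, so that all groups overlapped. On average 36.1% of the probe sets of a CBP-deleted array lay below it, 36.3% in p300-deleted and 35.0% in control arrays. The differences from the control were 0.07 (95% interval -0.36 to 0.50) in CBP-deleted and 0.14 (95% interval -0.30 to 0.57) in p300-deleted cells, and neither passed (adjusted p of 0.892 for CBP-deleted and 0.782 for p300-deleted).

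Pdcd1, which encodes PD-1 and lies at chr1:94038305-94052553, had 1 probe set with little spread. It read 7.47, 7.66 and 7.53 in CBP-deleted, 7.31, 7.45 and 7.35 in p300-deleted and 7.17, 7.51 and 7.43 in control arrays 1 to 3. The CBP-deleted arrays overlapped the controls and lay just above the p300-deleted ones. The differences were 0.19 for CBP-deleted against control (95% interval -0.06 to 0.43, adjusted p = 0.415) and 0.00 for p300-deleted against control (95% interval -0.25 to 0.25, adjusted p = 0.997). Between the knockouts Pdcd1 differed by 0.19 (95% interval -0.06 to 0.43, adjusted p = 0.473). Arrays of these 2 groups did not overlap for 4 of the 13 members (Il21, the brighter Ahr probe set, Cxcr5 and Pdcd1), against 27.5% of all probe sets, and for 3 of the 4 the CBP-deleted arrays were the higher, against 14.6% of all.

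Rora, the gene of RORalpha at chr9:68653404-69388246, had 3 probe sets, which disagreed. The brightest, 1424034_at, read 7.91, 7.94 and 7.51 in CBP-deleted arrays 1 to 3, 8.32, 7.27 and 7.67 in p300-deleted arrays, and 8.42, 8.16 and 8.49 in controls. All CBP-deleted arrays were below the controls, whereas p300-deleted replicate 1 lay among them. It was -0.57 from the control in CBP-deleted (SE 0.23, adjusted p = 0.199) and -0.60 in p300-deleted cells (SE 0.23, adjusted p = 0.190), and neither passed, with adjusted p down to 0.0978 and 0.0536 over 20 alternatives. The second, 1420583_a_at, had the widest spread of the 13, with a within-group SD of 0.73 that exceeds that of 99.6% of all probe sets. In controls it read 6.59, 4.97 and 6.99, which spans the 5.81 to 6.38 of the CBP-deleted and the 5.49 to 6.67 of the p300-deleted arrays. The third, 1424035_at, read 3.31 to 3.51 in CBP-deleted, 3.41 to 3.83 in p300-deleted and 3.03 to 3.50 in control arrays. Over the 9 arrays the brightest probe set had r = 0.57 with the second and r = 0.05 with the third.

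Il6ra, the ligand-binding chain of the IL-6 receptor at chr3:89869324-89913196, had 2 probe sets that moved alike, with r = 0.85 over the 9 arrays. The brighter, 1452416_at, read 9.01, 9.33 and 8.70 in CBP-deleted, 8.78, 8.91 and 9.36 in p300-deleted and 9.05, 9.56 and 9.68 in control arrays 1 to 3. In both comparisons with the control the ranges overlapped. The differences were -0.42 in CBP-deleted (95% interval -0.86 to 0.03, adjusted p = 0.301) and -0.41 in p300-deleted cells (95% interval -0.86 to 0.03, adjusted p = 0.328). For the other probe set they were -0.19 in CBP-deleted (adjusted p = 0.621) and -0.21 in p300-deleted cells (adjusted p = 0.605). Over all 13 probe sets, the CBP-deleted and control arrays were apart for 4 (Il21, the brighter Ahr, Cxcr5 and the brightest Rora probe set), against 22.8% of all probe sets. For 2 of them the CBP-deleted arrays were the higher, against 10.3% of all, and for 2 the lower, against 12.6%. The p300-deleted and control arrays were apart for 1, Il21, against 19.7% of all, and it was higher, against 9.26% of all.

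**Figure D3:**
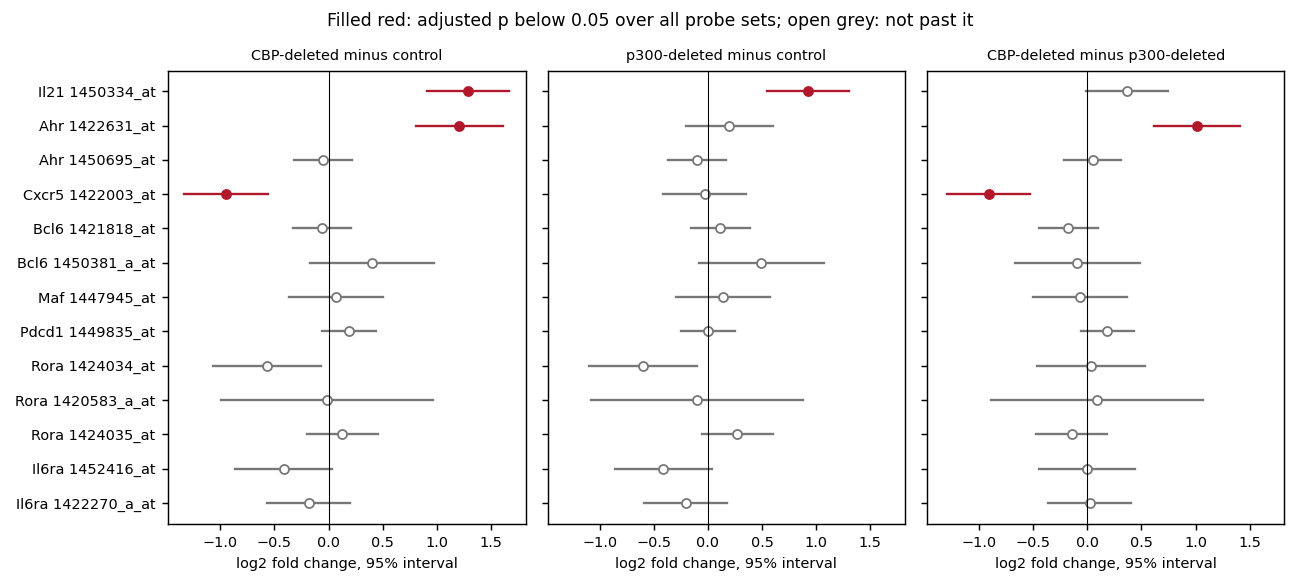
Log2 fold changes of the 13 probe sets with 95% intervals from limma in 3 comparisons, filled red where the adjusted p was below 0.05 over all probe sets and open grey otherwise. Il21 is filled in both comparisons with the control, and Ahr 1422631_at and Cxcr5 are filled where CBP-deleted cells are compared with either other group.

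Further genes of the pathways were read by the brightest probe set of each. When all 12393 genes were fitted that way, 611 were called for CBP-deleted and 503 for p300-deleted cells against control, and 645 between the knockouts. For signalling downstream of IL-6 and IL-21, 13 genes were measured. In CBP-deleted cells against the control 1 fell and 0 rose, with a list median of -0.10 against -0.02 for all probe sets: Bcl3, an atypical NF-kappaB inhibitor protein induced by cytokines, fell by 0.60 (SE 0.10, adjusted p = 0.0186). That call was lost without CBP-deleted replicate 2 (adjusted p = 0.0879) or 3 (0.0946) or control replicate 1 (0.0759) and in the fit of these 2 groups (0.0565), with adjusted p from 0.00357 to 0.0946 over 20 alternatives. Its arrays read 7.31, 7.10 and 7.08 in CBP-deleted, 7.51, 7.60 and 7.69 in p300-deleted and 7.79, 7.82 and 7.68 in control cells. Against p300-deleted cells Bcl3 was the 1 gene lower and 0 were higher (log2 -0.43, adjusted p = 0.0459), a call kept in 11 of 20 alternatives and lost without each array except controls 2 and 3 (0.0609 to 0.190), with array medians subtracted (0.0671) and with a replicate block (0.0962). In p300-deleted cells against the control 1 rose and 0 fell: Il21r, the receptor of IL-21, rose by 0.64 (SE 0.11, adjusted p = 0.0190). It read 8.02, 8.04 and 7.98 in p300-deleted, 7.86, 7.55 and 7.64 in CBP-deleted and 7.46, 7.20 and 7.47 in control arrays, with no overlap between p300-deleted and control arrays. That call was lost without p300-deleted replicate 1 (adjusted p = 0.0656) or 2 (0.0965), with the 18S covariate (0.0829) and in the fit of these 2 groups (0.0538), in a range of 0.0112 to 0.0965. At an unadjusted p under 0.05, 5 of the 13 genes were lower and 1 higher in CBP-deleted cells than in the control, against 18.9% of all probe sets. In p300-deleted cells 1 was lower and 2 higher than in the control (17.3% of all), and between the knockouts 4 were lower and 0 higher (16.2% of all).

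Of 14 other Tfh genes, for co-stimulation and transcription, 0 passed in any comparison with limma. At an unadjusted p under 0.05, 6 were higher and 1 lower in CBP-deleted cells than in the control, and the list median was 0.19. Over all probe sets, 18.9% were under it in either direction in that comparison, 17.3% in p300-deleted against control and 16.2% between the knockouts. In p300-deleted cells 6 were higher and 1 lower than in the control (median 0.13), and 3 were higher and 1 lower in CBP-deleted than in p300-deleted cells (median 0.04). Tox, a nuclear factor of Tfh and chronically stimulated T cells, was 0.99 higher in CBP-deleted (adjusted p = 0.0984) and 0.70 higher in p300-deleted cells (adjusted p = 0.246) than in the control. Control arrays 1 to 3 read 7.0, 6.00 and 7.49, and Tox passed under 2 alternatives for CBP-deleted and 1 for p300-deleted cells. Of 10 genes that oppose the Tfh fate or are low in Tfh cells, 1 fell and 0 rose in CBP-deleted cells. In p300-deleted cells against the control and between the knockouts 0 passed. At an unadjusted p under 0.05, 3 were lower and 1 higher in CBP-deleted cells than in the control. There were 4 in p300-deleted cells against the control and 1 between the knockouts. Selplg, the selectin ligand PSGL-1, fell by 0.33 in CBP-deleted cells (adjusted p = 0.0275, range 0.00646 to 0.122 over 20 alternatives), without a call when any 1 CBP-deleted array (0.0812 to 0.122) or control replicate 1 (0.0980) was left out, in the fit of these 2 groups (0.0746), without the trend (0.0731) and with a replicate block (0.0679). Of 12 Th17 genes 0 passed in any comparison, and at an unadjusted p under 0.05 there was 1 in CBP-deleted against control, 1 in p300-deleted against control and 0 between the knockouts. The chemokine receptor Ccr6 was -0.84 from the control in CBP-deleted cells (adjusted p = 0.116). Il17a, the Th17 cytokine, was 0.73 above the control in p300-deleted cells (adjusted p = 0.184), with p300-deleted arrays at 6.00, 4.62 and 5.14 and control arrays at 4.52, 4.52 and 4.53.

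Of 8 ligands, effectors and relatives of PD-1, 1 rose in CBP-deleted cells and 0 fell: Ctla4, another inhibitory receptor, by 0.56 (adjusted p = 0.0250, range 0.00896 to 0.104), a call lost without any 1 CBP-deleted array (0.0885 to 0.104) and in the fit of these 2 groups (0.0765). In p300-deleted cells against the control and between the knockouts 0 passed. At an unadjusted p under 0.05 there were 4 each, against 17.3% and 16.2% of all probe sets. In CBP-deleted cells against the control 2 were higher and 0 lower at that level, against 18.9% of all. Cd274, the PD-1 ligand PD-L1, was 0.39 above the control in p300-deleted cells (adjusted p = 0.0719). Of 11 ROR and REV-ERB receptor and clock genes, 1 fell in CBP-deleted cells against the control and 0 rose. This was Nr1d2, the repressor REV-ERBbeta that binds the same DNA elements as the ROR receptors (log2 -0.50, adjusted p = 0.0214). It read 8.34, 8.36 and 8.31 in CBP-deleted, 8.87, 8.86 and 8.99 in p300-deleted and 8.88, 8.92 and 8.69 in control arrays, and was also lower in CBP-deleted than in p300-deleted cells (log2 -0.57, adjusted p = 0.00839). Averaged over its 2 probe sets Nr1d2 was at -0.24 against the control (adjusted p = 0.257) and -0.42 against p300-deleted cells (adjusted p = 0.0559). Against the control its call was also lost without any 1 CBP-deleted array (0.0845 to 0.101) or control replicate 1 (0.0845), in the fit of these 2 groups (0.0633) and with a replicate block (0.0551), and against p300-deleted cells without CBP-deleted replicate 2 (0.0506). In p300-deleted cells against the control 0 of the 11 passed (3 at an unadjusted p under 0.05). At that level 5 of the 11 were lower and 0 higher in CBP-deleted cells against the control. Between the knockouts 2 were lower and 0 higher. Of 8 BCL6 corepressors and related repressors 0 passed in any comparison, with 4 at an unadjusted p under 0.05 in each knockout against the control and 2 between the knockouts. Of all probe sets, 18.9% (CBP-deleted), 17.3% (p300-deleted) and 16.2% (between the knockouts) were under it. Zbtb16, the gene of PLZF, was -1.04 from the control in CBP-deleted (adjusted p = 0.0984) and -0.96 in p300-deleted cells (adjusted p = 0.130).

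**Figure D4:**
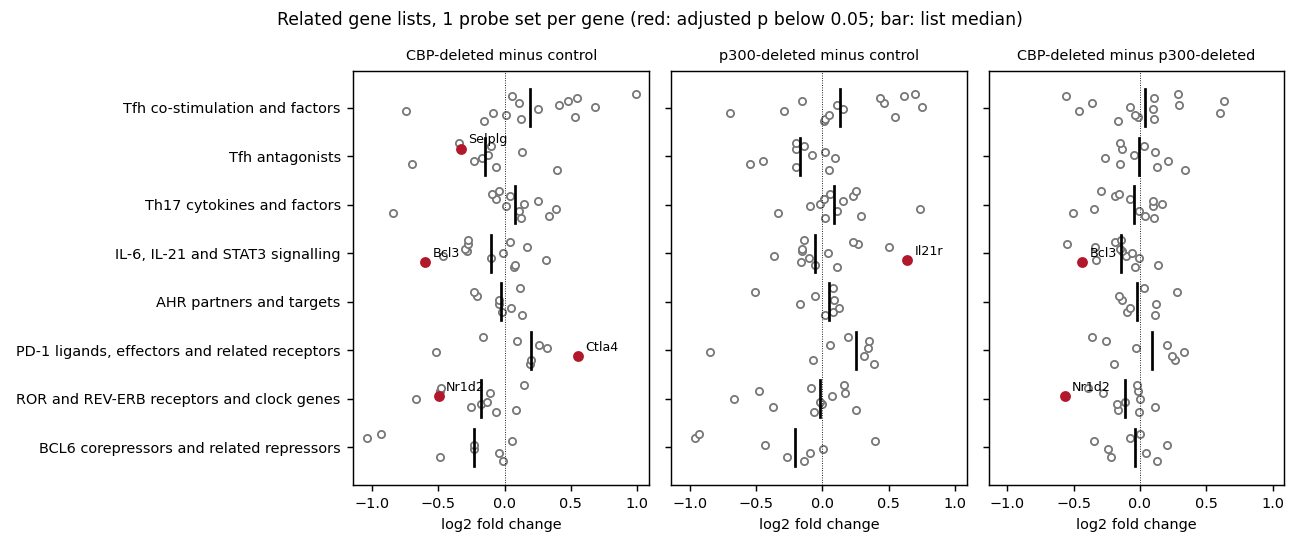
Log2 fold changes (x axis) of genes in 8 lists related to the Tfh and Th17 programs (y axis), 1 probe set per gene, in 3 comparisons, with red points for an adjusted p below 0.05 and a black bar at each list median. The red points are Selplg, Bcl3, Ctla4 and Nr1d2 for CBP-deleted against control, Il21r for p300-deleted against control, and Bcl3 and Nr1d2 between the knockouts.

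Likeness over the 9 arrays was described with Pearson's r among 10362 probe sets at or above the median level. The arrays share their groups and their normalisation, so these values describe pattern only. Nearest to Il21 were Pafah1b2 (r = 0.98), Vrk2 and Btf3l4 (r = 0.98 each). Nearest to Ahr were Tsn (r = 0.98), Idh3a and Il1r2 (r = 0.96 each). Nearest to Cxcr5 were Fam118a, Ly6d and Crebbp (r = 0.97 each). For Bcl6 they were Blnk (0.90) and Syk (0.89), an adaptor and a kinase of B cell receptor signalling, for Maf Tbl1x (0.93), G3bp2 and Gnas (0.91 each), and for Pdcd1 Paics, Clasp2 and Psmd11 (0.93 each). For Rora they were Tmem39a (0.96), Tagln2 and Slc16a6 (0.93 each), and for Il6ra Naa15 (0.99), Xrn2 (0.99) and Scaf11 (0.97). Among the members themselves the brighter Ahr probe set and Cxcr5 ran opposite, with r = -0.92.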

How the data were processed

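The deposited values are log2 values, 1 per probe set and array, which the authors made with RMA, per the submitters' processing notes; its version and settings are not given in the sources used here. They were used as deposited. Of 22690 probe sets, 64 are array controls and 22626 were tested, of which 20380 carry 1 gene symbol, 691 several and 1555 none in the platform annotation. Symbols were matched to RefSeq on GRCm38.p6. Every probe set was fitted in limma 3.58.1 (R 4.3.3) as 3 group means from the 9 arrays together, which leaves 6 residual degrees of freedom, with moderated variances that follow mean level (trend), two-sided tests and Benjamini-Hochberg adjustment over all 22626. Intervals are from that fit. The procedure was tested on simulated data, where most changes of the smallest size tried were missed. The share of false calls there came out above the threshold in some comparisons and below it in another. Whether this share differs between the comparisons was not tested. With 3 arrays on each side, 0.1 is the smallest exact permutation p.

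Named were all member probe sets, and of each related or marker list up to 4 genes that passed, ranked by size of change, and from a list with none that passed up to 2, not all of which are printed. Genes of a list were read by the brightest probe set. Members and lists were chosen with earlier results of these data known. Likeness was the 3 highest correlations; 1 gene that met this rule for Bcl6 is not reported here. Whether samples came from separate animals beyond being independent is not stated, and p-values measure the spread between these samples. Alternatives varied the probe set unit, filters, scaling, moderation, covariates, arrays and a replicate block.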

Additional observations from a re-analysis of the deposited data

How the results depend on the processing

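Of 738 values of the 13 probe sets under alternatives, 20 lost a call, 0 gained one and 0 reversed one; all 20 concern Il21 in p300-deleted cells, Ahr or Cxcr5 and are given with these genes. Below the threshold, Bcl6 in CBP-deleted cells was 0.17 with both probe sets averaged, and Cxcr5 in p300-deleted cells 0.27 with the 18S covariate. The number of members called against the control was 3 in CBP-deleted cells (1 to 3 without single arrays, 1 without CBP-deleted replicate 2 or control replicate 1). In p300-deleted cells it was 1, and 0 when only the 2 groups were fitted, with the 18S covariate, and without p300-deleted replicate 1 or 2 or control replicate 1 (0 to 1 without single arrays). Between the knockouts it was 2 (0 to 2 without single arrays, 0 without CBP-deleted replicate 2 or 3, and 1 without CBP-deleted replicate 1 or any p300-deleted array). Over all probe sets 566, 592 and 758 were called in the 3 comparisons, in the order CBP-deleted with control, p300-deleted with control, and the knockouts with each other. These counts were 193, 130 and 1733 with the compared groups only, and 2302, 1388 and 2011 with array weights. With the 18S covariate the first 2 were 349 and 184, and with the mean of all probe sets per gene the second was 356. Without single arrays they ran from 85 to 1624, 74 to 1377 and 134 to 1270. The 1624 and 1377 were reached without control replicate 3 and the 1270 without control replicate 2. The replicate numbers do not pair the arrays: same-numbered arrays had correlations of deviations from -0.22 to 0.26. With a replicate block the counts were 262, 278 and 545, and the members called were 3, 1 and 2. The causes of these changes were not tested. The number of arrays, 3 per group, limits the precision, and 4 of the 13 probe sets lie below the median probe set.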

Other observations

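Control replicate 2 read lowest of all 9 arrays on Rora 1420583_a_at (4.97), Bcl6 1450381_a_at (3.42), Rora 1424035_at (3.03) and Tox (6.00), while it read highest of the 9 on Cxcr5 (7.79) and highest of the 3 controls on Il21 (5.30). These genes were picked after their values were seen. Zbtb7a, which encodes a repressor related to BCL6, was at 7.58, 7.65 and 6.96 in CBP-deleted arrays 1 to 3, 7.19, 6.78 and 8.22 in p300-deleted arrays and 8.26, 8.47 and 8.26 in controls. It was -0.93 from the control in both knockouts, with adjusted p of 0.123 (CBP-deleted) and 0.134 (p300-deleted), and passed without p300-deleted replicate 3 (adjusted p of 0.0411 for CBP-deleted and 0.0186 for p300-deleted).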
